A study of Homo sapiens with 2 samples.

Results

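The Hippo pathway genes examined here are the 4 TEAD transcription factor genes (TEAD1, TEAD2, TEAD3 and TEAD4), the genes of their coactivators YAP (YAP1) and TAZ (WWTR1), and 4 genes that YAP and TAZ are known to switch on through TEAD (CCN1, CCN2, ANKRD1 and AMOTL2). CCN1 and CCN2 are also known as CYR61 and CTGF. They were chosen by name, as 10 of 20037 protein-coding genes, and every peak inside a gene or within 50 kb of it was counted. Earlier results of these data were known when the genes were chosen. Binding was profiled in untreated cells of MDA-MB-231, a triple-negative breast cancer cell line that is widely used as a model of invasive disease, grown in DMEM with 10% fetal bovine serum. There was 1 CUT&Tag library with an antibody against RUNX2 and 1 with an antibody against MTA1. CUT&Tag tethers a transposase to an antibody on chromatin, so that DNA near the bound protein is tagged and sequenced. No control library was analysed here and neither library has a replicate, so the values below describe 2 libraries and carry no test. Read depth is not known for either library, and a site without a peak can be a weak one.

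In the Hippo pathway, a chain of kinases ending in LATS1 and LATS2 phosphorylates YAP and TAZ and holds them out of the nucleus. When the kinases are off, YAP and TAZ enter the nucleus and activate genes through the TEAD proteins, which bind DNA at a short core, GGAATG. YAP and TAZ have WW domains that also bind a PY motif in RUNX proteins, and RUNX2 itself binds DNA at a core of TGTGGT or TGCGGT. MTA1 is a subunit of the NuRD complex, which moves nucleosomes and removes acetyl groups from histones. MDA-MB-231 cells are known to lack functional NF2, an upstream activator of the kinases.

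All 10 genes had peaks of both libraries in their regions, where the region of a gene is its span with 50 kb on each side. That by itself sets them apart little, because 90.8% of all protein-coding genes had a RUNX2 peak by the same measure, 86.6% had an MTA1 peak and 84.9% had both. The 10 regions, 1763 kb in all, held 98 of 61700 RUNX2 peaks and 76 of 42683 MTA1 peaks. Within 1 kb of an annotated gene start, 9 of the 10 had a peak of each library, against 49.8% of all genes for RUNX2, 51.2% for MTA1 and 44.3% for both. The start was taken from the RefSeq promoter table, which held 7 of the 10. TEAD1, TEAD4 and CCN1 are not in it, so either end of those genes was counted, as was done for every other gene without an entry. The gene with no such peak was TEAD2, and its nearest peaks lay just beyond the limit.

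Each peak carries a score from the authors' peak caller whose scale is not stated, so scores are given here with the percentage of peaks in the same list that score lower. A peak of the highest decile of the RUNX2 list lay in 9 of the 10 regions, against 38.8% of all genes. For MTA1 this was so in 6 of 10, against 38.9%, and for both libraries in 6 of 10, against 26.5%. CCN2 was the gene with no RUNX2 peak of that decile. Long genes catch more peaks, so counts were also taken per length. At least 5 RUNX2 peaks per 100 kb of region were found at 5 of the 10 genes, against 33.5% of all genes. For MTA1 there were 4, against 22.3%.

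**Figure D1:**
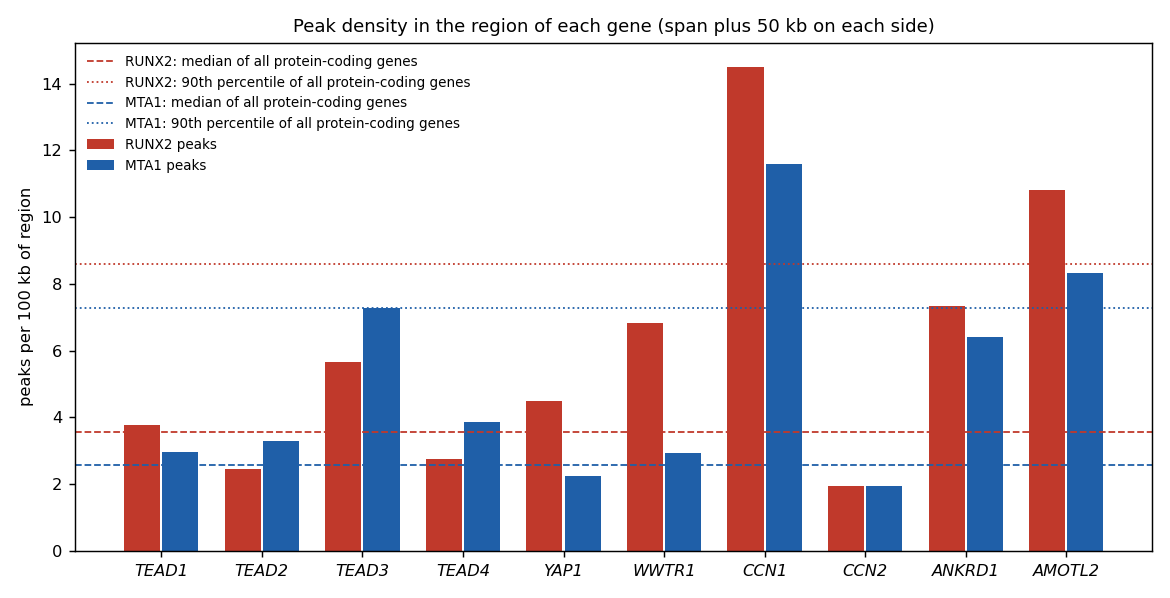
RUNX2 (red) and MTA1 (blue) peaks per 100 kb of region for each of the 10 genes, with the median (dashed) and the 90th percentile (dotted) of all protein-coding genes. CCN1 with 14.5 and AMOTL2 with 10.8 RUNX2 peaks per 100 kb stand above the RUNX2 90th percentile of 8.60, and CCN2 with 1.94 lies below both medians.

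The plot of density by gene shows how unlike the members were. The median protein-coding gene had 3.55 RUNX2 and 2.58 MTA1 peaks per 100 kb of region. The 4 target genes together had 8.73 RUNX2 and 7.12 MTA1 peaks per 100 kb, the 4 TEAD genes 3.64 and 3.89, and YAP1 and WWTR1 together 5.84 and 2.64. CCN1 led with 14.5 RUNX2 peaks per 100 kb, a density higher than that of 99.7% of protein-coding genes, and with 11.6 MTA1 peaks per 100 kb, higher than 99.0%. AMOTL2 followed with 10.8 and 8.33, higher than 96.6% and 93.4% of genes. The lowest was the other CCN gene, CCN2, with 1.94 per 100 kb in each library.

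The promoters with TEAD cores are shown here, because the peaks at them can be read against the sequence. The last 250 bases before the start are given on the strand of the gene, 5′ to 3′, from RefSeq (GRCh38.p14). They lie at chr6:131951373-131951622 for CCN2 (minus strand), chr10:90921088-90921337 for ANKRD1 (minus strand), chr3:134374448-134374697 for the inner start of AMOTL2 (minus strand) and chr11:102110197-102110446 for YAP1 (plus strand). Capitals mark the TEAD core, GGAATG or CATTCC on the other strand, and the RUNX core, which occurs once, as TGTGGT in AMOTL2.
CCN2: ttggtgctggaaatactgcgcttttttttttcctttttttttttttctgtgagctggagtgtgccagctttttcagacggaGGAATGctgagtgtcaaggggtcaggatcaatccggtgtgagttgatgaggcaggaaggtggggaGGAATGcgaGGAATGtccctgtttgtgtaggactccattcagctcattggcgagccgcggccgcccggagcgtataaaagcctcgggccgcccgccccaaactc
ANKRD1: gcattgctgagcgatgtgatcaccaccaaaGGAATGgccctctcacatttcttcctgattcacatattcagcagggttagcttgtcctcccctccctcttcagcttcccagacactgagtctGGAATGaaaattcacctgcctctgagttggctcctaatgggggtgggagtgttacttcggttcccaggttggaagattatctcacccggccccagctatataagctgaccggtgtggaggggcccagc
AMOTL2: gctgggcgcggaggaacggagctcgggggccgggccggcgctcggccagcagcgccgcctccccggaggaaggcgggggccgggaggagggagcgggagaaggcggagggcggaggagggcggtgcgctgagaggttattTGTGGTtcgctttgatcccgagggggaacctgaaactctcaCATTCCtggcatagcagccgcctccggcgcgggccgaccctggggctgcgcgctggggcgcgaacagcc
YAP1: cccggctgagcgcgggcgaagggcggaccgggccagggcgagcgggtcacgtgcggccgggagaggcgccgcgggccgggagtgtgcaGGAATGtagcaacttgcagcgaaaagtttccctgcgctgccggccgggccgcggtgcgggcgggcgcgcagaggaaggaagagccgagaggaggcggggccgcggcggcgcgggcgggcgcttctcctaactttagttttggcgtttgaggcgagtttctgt

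Motifs were searched on both strands in windows from 250 bases before to 50 bases after the start. The RefSeq table held 10 such windows for 7 of the genes, TEAD2, WWTR1 and AMOTL2 having 2 starts each. Among 22199 windows of protein-coding genes, 12.2% held a TEAD core, 1.06% held 2 or more, and 19.0% held a RUNX core. CCN2 had 3 TEAD cores, beginning 169, 104 and 95 bases before the start. ANKRD1 had 2, at 220 and 128 bases, and a match of TGANTCA, the AP-1 motif, at 195 bases, a motif that 6.15% of windows held. AMOTL2 had 1 TEAD core at 69 bases and 1 RUNX core at 110 bases before its inner start. The window of YAP1 had 1 TEAD core at 162 bases. CCN2 and ANKRD1 are textbook TEAD targets, so the cores in their promoters were known beforehand.

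The peaks of both libraries covered most of these cores. They also covered much of the windows, from 148 bp (RUNX2 at ANKRD1) to 300 bp (RUNX2 at AMOTL2). Many positions in these windows thus lay inside a peak. The share of TEAD cores among all windows with peaks was not taken. The RUNX2 peak at CCN2 took in 2 of the 3 TEAD cores and the MTA1 peak all 3. Both ANKRD1 cores and its AP-1 match, both AMOTL2 cores and the YAP1 core lay inside peaks of both libraries. Of the 5 windows that held peaks of both libraries, 4 had a TEAD core and 1 had a RUNX core. The remaining one, at the inner start of WWTR1, had neither. The outer WWTR1 start had a RUNX core at 123 bases and no peak. The 2 windows of TEAD2, that of TEAD3 and that of the outer AMOTL2 start held none of the 3 motifs.

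**Figure D2:**
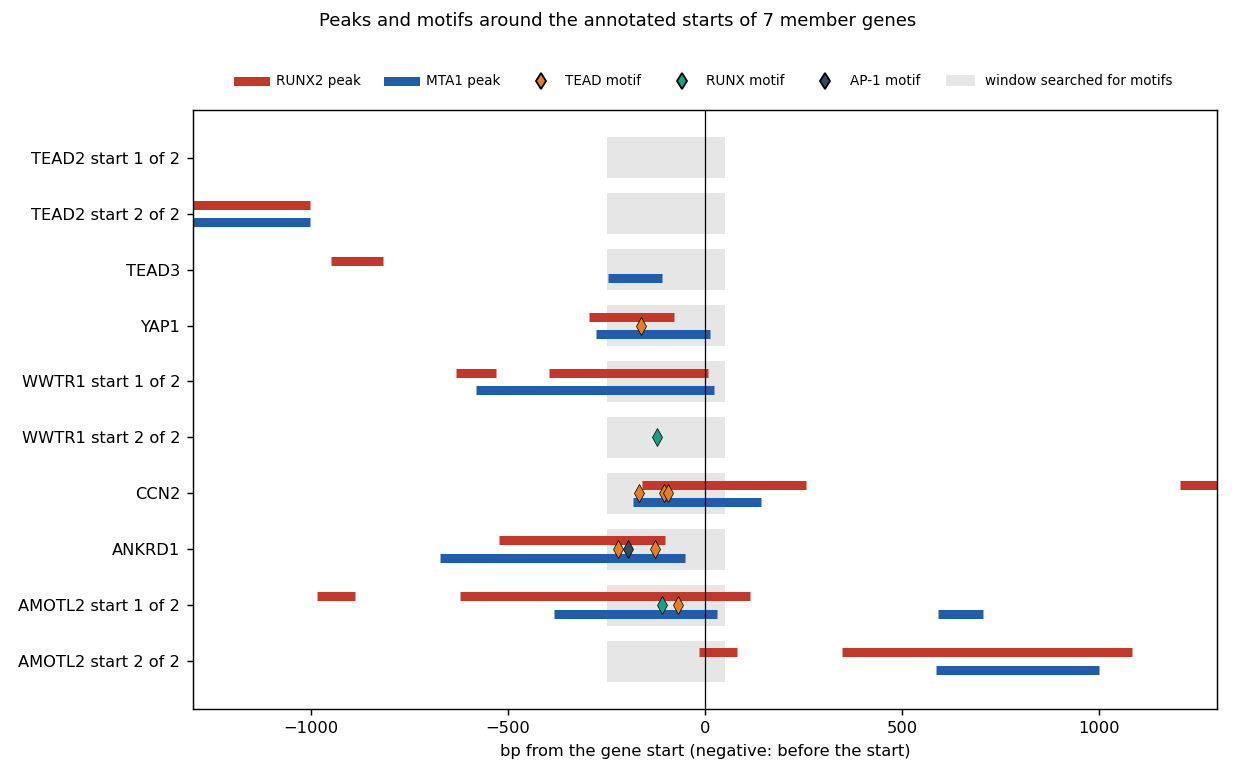
RUNX2 (red) and MTA1 (blue) peaks within 1300 bp of the 10 annotated starts of 7 genes, in bp from the start along the gene, with the motifs found in the shaded window of 250 bp before to 50 bp after the start. Peaks of both libraries lie over the windows of YAP1, CCN2, ANKRD1 and the inner starts of WWTR1 and AMOTL2, and at TEAD2 they end 1002 bp and 1003 bp before the outer start.

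Base composition varied among the windows in the plot of gene starts. Those with peaks of both libraries ran from 52.7% G and C at ANKRD1 to 72.7% at AMOTL2. Their CG dinucleotides ran from 5 at ANKRD1 to 40 at YAP1. The window with the highest content, TEAD3 with 81.3% and 44 CG dinucleotides, held an MTA1 peak and no RUNX2 peak.

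CCN1, which encodes a secreted matrix protein of the CCN family, had the most peaks per 100 kb of region among the 10, with 15 RUNX2 and 12 MTA1 peaks in all, while WWTR1, a longer gene, had more RUNX2 peaks by count. The gene itself, 3.19 kb long, carried peaks of low to middling rank. At its lower-coordinate end lay a RUNX2 peak (chromosome 1, 85580619 to 85580765, score 6.18) that ranked above only 46.0% of its list and overlapped an MTA1 peak of score 9.91. A RUNX2 peak inside the gene, at 85581432 to 85581530, had a score of 4.34 and no partner. Just past the other end, 375 bp from it, a RUNX2 peak of score 8.42 (higher than 61.6%) overlapped an MTA1 peak of 7.82 (higher than 52.2%). The strongest peaks lay beyond the other end of the gene. A RUNX2 peak 23.0 kb away (85606996 to 85607712) had a score of 87.6, rank 25 of 61700, and the MTA1 peak over it a score of 49.4, rank 316 of 42683. Further RUNX2 peaks lay 15.1 kb (score 29.6), 27.9 kb (51.1) and 44.8 kb (49.7) from the gene, which stood above 93.8% to 98.7% of the list. All 12 MTA1 peaks of the CCN1 region overlapped a RUNX2 peak, as did 65.5% of the whole MTA1 list. For 7 of the 15 RUNX2 peaks the nearest protein-coding gene was not CCN1 but DDAH1 on one side or ZNHIT6 on the other.

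CCN2 encodes the related matrix protein also called connective tissue growth factor. Its region held only 2 peaks of each library. The stronger pair sat on the start of the gene, the RUNX2 peak at chromosome 6, 131951116 to 131951531 (score 17.4, higher than 84.2% of the list) and the MTA1 peak at 131951230 to 131951555 (score 15.1, higher than 79.9%). The other RUNX2 peak, inside the gene, had a score of 4.94 and the other MTA1 peak, 3.47 kb upstream, a score of 7.42, and neither overlapped a peak of the other list. The CCN genes thus differed in layout, CCN1 having middling peaks at its ends and strong distant ones, and CCN2 its strongest peaks at the start.

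ANKRD1, an ankyrin repeat protein of muscle that many YAP studies use as a readout, had no peak that touched the gene span. The MTA1 peak at its start was nonetheless the highest-scoring MTA1 peak near a start among the 10 genes, and the RUNX2 peak there came second to that of AMOTL2. The RUNX2 peak ended 103 bp before it (chromosome 10, 90921190 to 90921611, score 27.1, higher than 92.5%) and the MTA1 peak 52 bp before it (90921139 to 90921760, score 36.9, higher than 97.5%). A pair of neighbouring peaks in each library lay 9.4 to 9.96 kb upstream. There the RUNX2 peak at 90931043 to 90931556 had a score of 24.4 and the MTA1 peak over it, whose centre was 0 bp away, a score of 14.1. Of the 8 RUNX2 peaks 7 overlapped an MTA1 peak, and all 7 MTA1 peaks overlapped a RUNX2 peak. In the whole lists 45.4% of RUNX2 peaks and 65.5% of MTA1 peaks did so.

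AMOTL2, an angiomotin-like scaffold that binds YAP and is itself a target gene, had 13 RUNX2 and 10 MTA1 peaks, and it was the nearest protein-coding gene to all of them. Its 2 annotated starts differed. The inner one lay under a RUNX2 peak of 736 bp (chromosome 3, 134374334 to 134375069, score 27.8, higher than 92.9%) and an MTA1 peak of score 13.8 (higher than 76.9%). At the outer one lay a weak RUNX2 peak, 99 bp wide, the least in the list, with a score of 4.65. An MTA1 peak of score 6.21, at 134373742 to 134373857, lay inside the gene 590 bp from the inner start and overlapped no RUNX2 peak. The strongest RUNX2 peak was inside the gene, 134357736 to 134358341, with a score of 36.4 (higher than 96.2%) over an MTA1 peak of 12.0. Downstream, 3 RUNX2 peaks 26.8 to 28.0 kb from the gene reached a score of 26.2 and each overlapped an MTA1 peak, with scores between 4.04 and 9.65. A farther group of 3, 41.8 to 43.8 kb away with scores of 7.32 to 14.5, overlapped none. Just outside the limit of 50 kb, at 51.5 kb, lay a RUNX2 peak of score 67.8, higher than 99.7% of the list, with an MTA1 peak of 28.3 at 52.0 kb. Neither was counted. The counted RUNX2 peaks nearest to the limit were at 48.3 kb (TEAD1, score 11.5) and 48.1 kb (TEAD3, score 13.0).

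**Figure D3:**
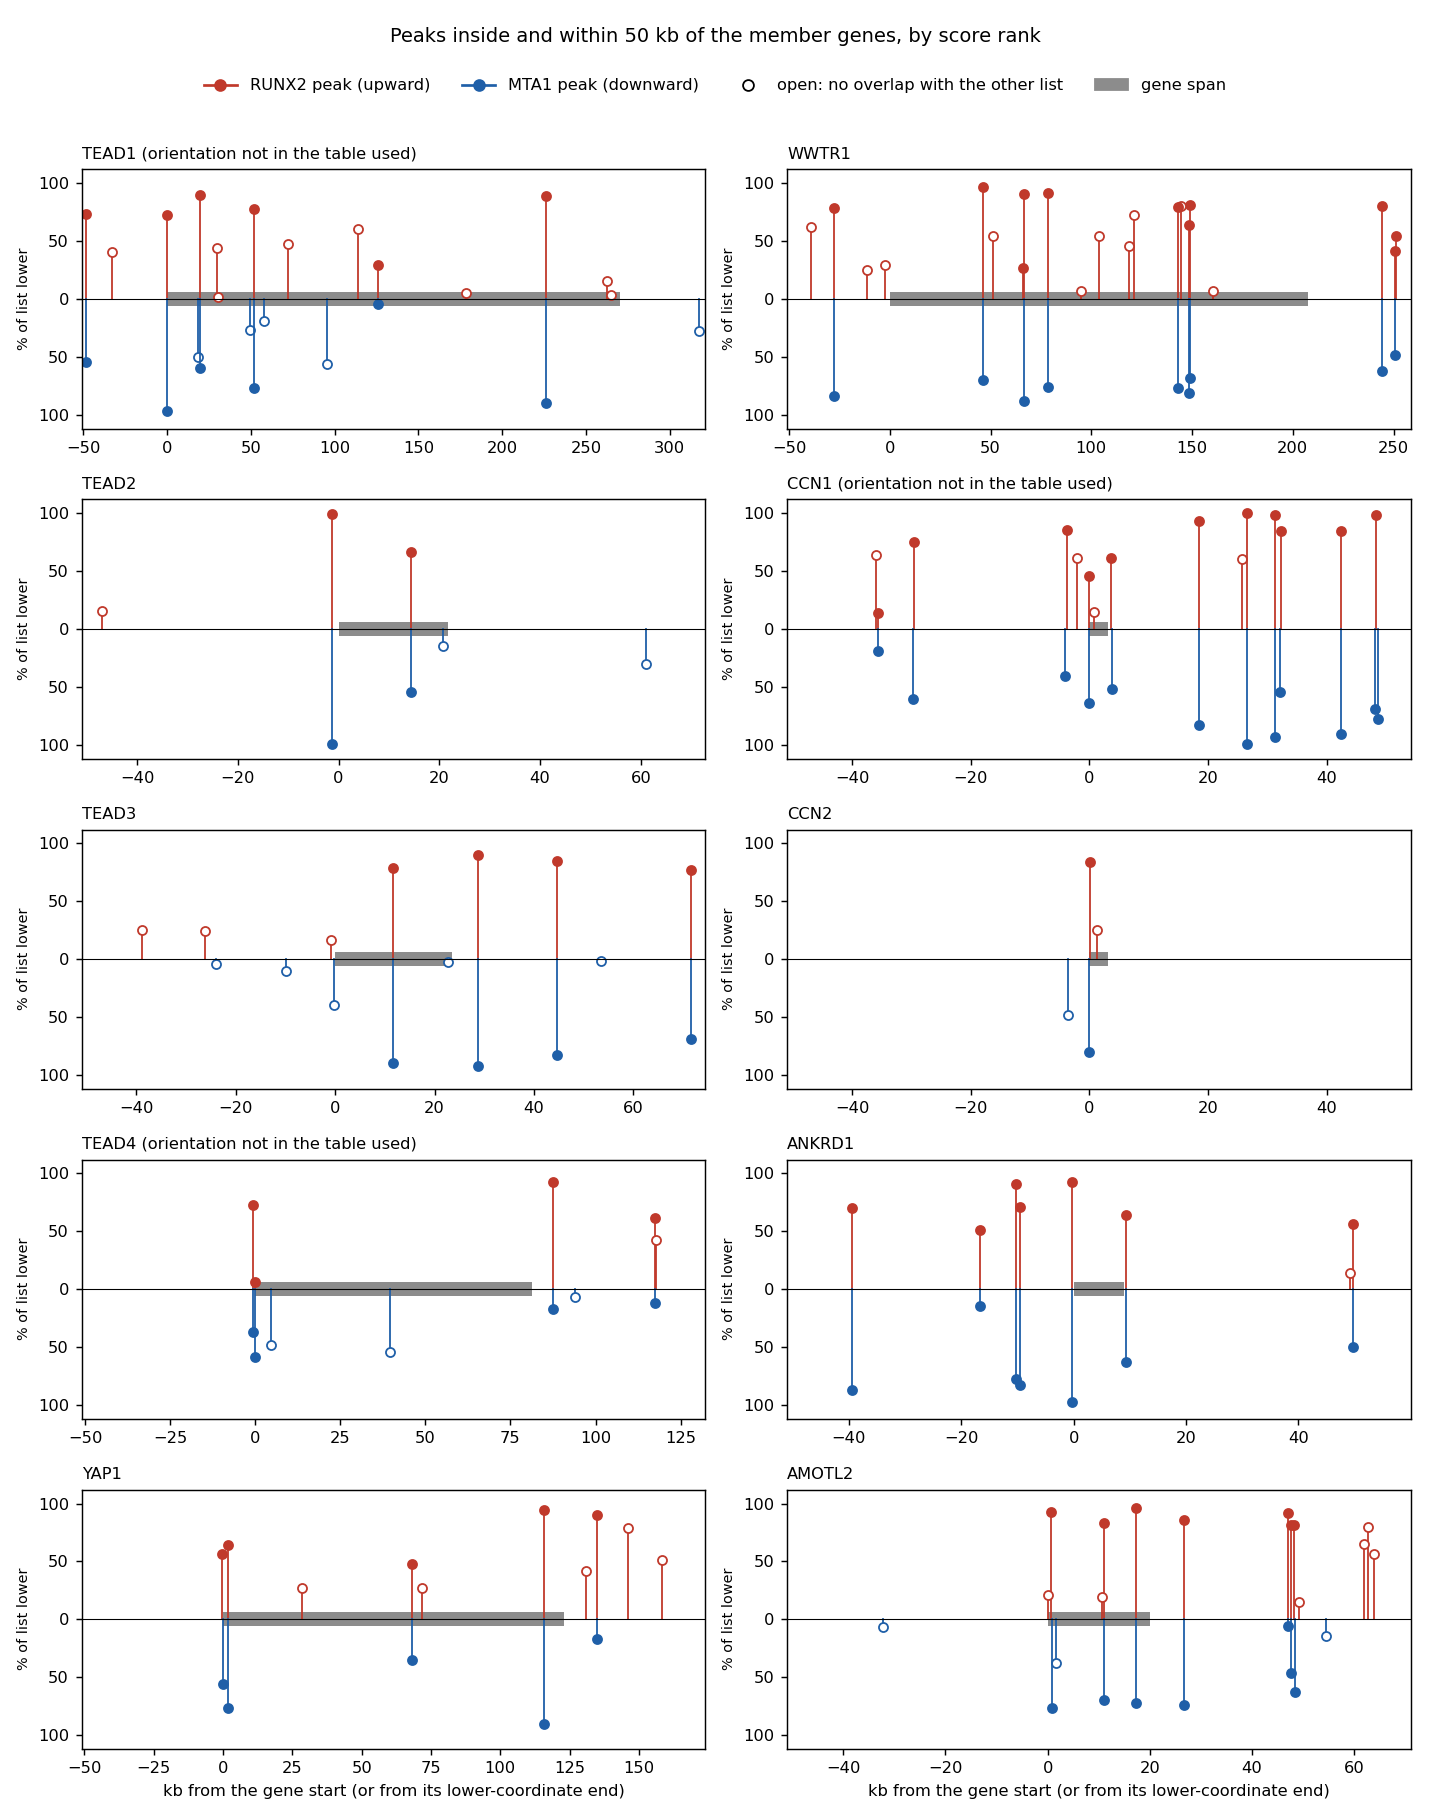
Peaks in the region of each gene, by distance in kb from the 5′ end of the gene span (from the lower-coordinate end where the table used gives no orientation) and by the percentage of peaks in the same list with a lower score, RUNX2 upward and MTA1 downward. Filled points overlap a peak of the other list, open points do not, and the grey bar is the gene. CCN1 has its tallest peaks beyond the gene, CCN2 a single tall pair at its start, and the open points sit mostly at low ranks.

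The coactivator genes had more RUNX2 than MTA1 peaks, and the RUNX2 list is also the longer, with 61700 peaks against 42683. WWTR1, the gene of TAZ, had 21 RUNX2 and 9 MTA1 peaks, and YAP1 had 10 and 5. WWTR1 was the nearest protein-coding gene to 15 of its RUNX2 and 6 of its MTA1 peaks, and YAP1 to all of its own. All 14 MTA1 peaks of the 2 regions overlapped a RUNX2 peak (exact 95% interval 76.8% to 100%), against 65.5% of the whole MTA1 list. Of the 31 RUNX2 peaks 16 overlapped an MTA1 peak, 51.6% (33.1% to 69.8%), near the 45.4% of the whole RUNX2 list. RUNX2 peaks without an MTA1 peak numbered 10 of 21 at WWTR1 and 5 of 10 at YAP1. In its RUNX2 count the WWTR1 region exceeded 99.0% of protein-coding genes, but its density of 6.83 per 100 kb exceeded 80.9%.

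At YAP1 the start carried peaks of middling rank, a RUNX2 peak at chromosome 11, 102110151 to 102110369 (score 7.34, higher than 56.0%) and an MTA1 peak at 102110171 to 102110459 (score 8.44, higher than 55.8%). The strongest pair lay near the far end of the gene, 115 kb from the start, at 102225870 to 102226276 for RUNX2 (score 31.1, higher than 94.4%) and 102225897 to 102226223 for MTA1 (22.8, higher than 90.6%). A RUNX2 peak 11.7 kb beyond the gene scored 23.0 and its MTA1 partner only 4.99. Another, 22.9 kb beyond it, scored 14.1 and had no MTA1 peak.

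At WWTR1 the inner start had a RUNX2 peak at chromosome 3, 149658017 to 149658422 (score 24.2, higher than 90.7%), within an MTA1 peak at 149658002 to 149658606 (score 20.7, higher than 88.5%). That MTA1 peak also reached into a weak RUNX2 peak of score 4.99. The strongest RUNX2 peak of the gene lay 20.4 kb from that start, 149678388 to 149678666, with a score of 37.6 (higher than 96.5%) and an MTA1 partner of 11.5 (higher than 70.3%). A further one 11.6 kb from the start scored 25.5, with a partner of 13.3.

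At TEAD2 and TEAD3, the peaks with the highest scores were nearer to another gene. The strongest RUNX2 peak at the 4 TEAD genes, near TEAD2, lay 1002 bp from the outer start (chromosome 19, 49363418 to 49363986, score 56.0, rank 581 of 61700), with an MTA1 peak of score 53.9 over it (rank 193 of 42683). Its nearest protein-coding gene was DKKL1, so which gene it belongs to cannot be told from the lists. TEAD2 itself, one of 4 closely related DNA-binding proteins, carried little. Inside it the only pair was of RUNX2 score 9.39 and MTA1 score 8.25. In the TEAD3 region the strongest pair, RUNX2 score 23.7 and MTA1 score 25.0, was nearest to RPL10A, a ribosomal protein gene, and the other pairs outside the gene to FANCE and PPARD. Inside TEAD3 itself was a broad pair, the RUNX2 peak at chromosome 6, 35485100 to 35485883 (score 13.9, higher than 78.8%) and the MTA1 peak at 35484981 to 35485856 (21.7, higher than 89.6%). Near the TEAD3 start, the RUNX2 peak (score 4.45, 817 bp upstream) and the MTA1 peak (score 6.41, 109 bp upstream) did not overlap. Only 1 of the 7 RUNX2 peaks of this region had TEAD3 as its nearest protein-coding gene.

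TEAD1, the longest of the 10 with 270 kb, had 14 RUNX2 and 11 MTA1 peaks. At its lower-coordinate end the libraries differed in rank: the MTA1 peak (chromosome 11, 12674093 to 12674502, score 34.0) stood above 96.7% of its list, and the RUNX2 peak under it, 12674197 to 12674473, had a score of 11.2 and stood above 72.6%. Inside the gene, a RUNX2 peak of score 23.6 (higher than 90.3%) overlapped an MTA1 peak of 9.10, and one of 21.7 an MTA1 peak of 22.0. The gene end was thus led by MTA1 and the first of the inner sites by RUNX2. TEAD4 had 5 RUNX2 and 7 MTA1 peaks and none in the highest MTA1 decile. Both libraries had 2 peaks at its lower-coordinate end, the RUNX2 ones with scores of 11.3 and 3.54 and the MTA1 ones with 6.12 and 8.88. No RUNX2 peak lay elsewhere inside TEAD4, while 2 MTA1 peaks without a partner did, with scores of 7.42 and 8.25. The strongest RUNX2 peak, 6.13 kb beyond the other end (score 27.0, higher than 92.5%), overlapped an MTA1 peak of score 4.99, which was higher than 16.9% of its list.

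Over all 10 regions, 58 of 98 RUNX2 peaks shared 1 bp or more with an MTA1 peak, or 59.2% (exact 95% interval 48.8% to 69.0%), against 45.4% of the whole list. Conversely 57 of 76 MTA1 peaks overlapped a RUNX2 peak, 75.0% (63.7% to 84.2%), against 65.5%. These intervals treat peaks as independent and cover counting error only. The MTA1 share was 87.1% (70.2% to 96.4%) at the target genes and 51.6% (33.1% to 69.8%) at the TEAD genes. The centres of overlapping peaks were a median of 43.5 bp apart, and in 50 of 58 cases within 100 bp.

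Overlap went with score, at these genes as in the lists as a whole. RUNX2 peaks with an MTA1 partner had a median rank above 81.0% of the list, and those without one above 34.8%, against 72.4% and 29.3% over the whole list. For MTA1 these values were 70.3% and 26.8%, against 65.2% and 24.4%. In the 10 regions, no MTA1 peak without a partner stood above 56.0% of its list. The median score of the list was reached by 65 of 98 RUNX2 peaks (66.3%) and 47 of 76 MTA1 peaks (61.8%). The highest decile held 17.3% of the RUNX2 peaks here and 10.5% of the MTA1 peaks, the latter near the 9.99% of the whole MTA1 list. Peaks of the narrowest width made up 18.4% of RUNX2 peaks here against 31.7% of the list, and 23.7% of MTA1 peaks against 26.0%. The part of score in the higher overlap was not tested.

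**Figure D4:**
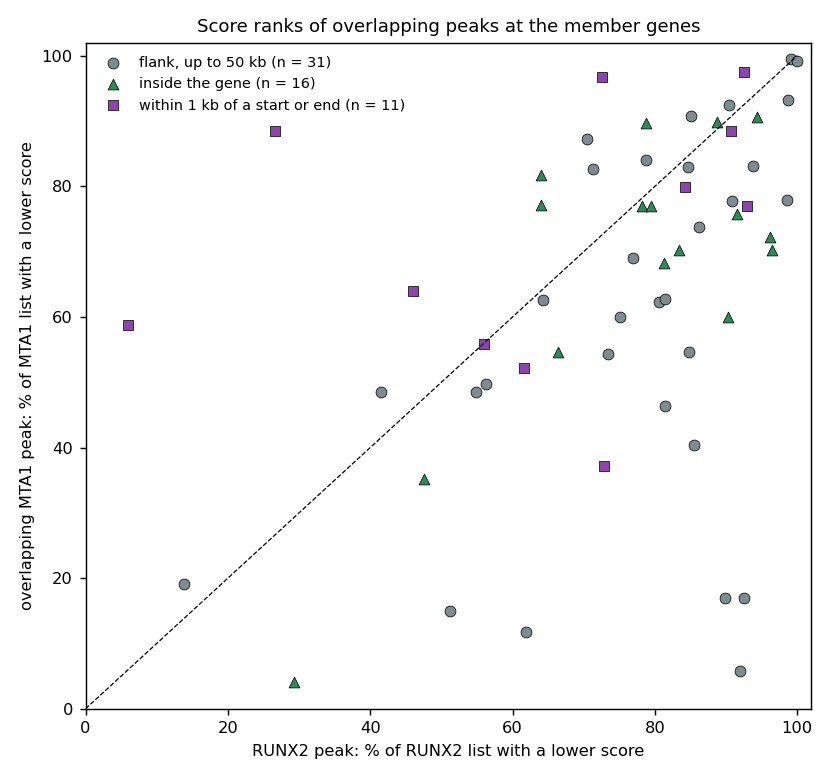
Each point is 1 of the 58 RUNX2 peaks that overlap an MTA1 peak, with the percentage of the RUNX2 list scoring lower on the x axis and that of the MTA1 list for the overlapping peak on the y axis. Points below the dashed line, 41 of 58, rank higher in the RUNX2 list, and those within 1 kb of a gene start or end (squares) lie on both sides.

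Where the lists overlapped, the RUNX2 peak usually had the higher rank, in 41 of 58 cases, against 56.7% of the 27997 overlapping RUNX2 peaks in the whole list. The MTA1 rank minus the RUNX2 rank had a median of -7.2 percentage points at these genes, and of -3.2 over the whole list. Each rank is relative to its own list, and the lists differ in length (61700 RUNX2 and 42683 MTA1 peaks). A higher rank is therefore not a measure of stronger binding. Near starts or ends it was higher for RUNX2 in 6 cases and for MTA1 in 5, with a median of -0.2 points. Inside genes the counts were 12 and 4 (median -12.0 points) and in the flanks 23 and 8 (median -10.6 points). This split by location was not taken over the whole lists, so whether it is particular to these genes is not known. The widest gap in the flanks was -86.1 points, at the AMOTL2 peak of RUNX2 score 26.2 and MTA1 score 4.04. At the TEAD4 and YAP1 flanks described above the MTA1 partner likewise stood low, each at 16.9% of its list.

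The start peaks were not all equally strong. When only the top 10000 peaks by score were kept in each library, 4 of the 10 genes had a RUNX2 peak within 1 kb of a start, WWTR1, CCN2, ANKRD1 and AMOTL2, against 14.4% of all protein-coding genes. MTA1 had 5, those 4 and TEAD1, against 24.8%. Both were present at 4, against 12.2%. Among RUNX2 peaks the median rank near starts or ends was above 58.8% of the list, inside genes above 57.8%, and in the flanks above 70.8%. For MTA1 the order differed, with 61.4%, 64.1% and 54.5%, the flanks being lowest. The same medians were not taken over the whole lists.

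The wider pathway was described with 38 further genes in 4 lists, LATS2 and PTPN14 each standing in 2 of them. Peaks of both libraries lay in the regions of 37 of the 38, against 84.9% of all genes, and within 1 kb of a start in 29, against 44.3%. The exception in the first count was VGLL2, a TEAD cofactor known from muscle, with no peak of either library. The 7 genes of the kinase core all had both in their regions and 6 had both near a start. STK3 and LATS2 had the strongest RUNX2 peaks, of 41.0 and 40.4, and STK3 and STK4 the strongest MTA1 peaks, of 35.6 and 26.4. Among 8 upstream regulators 5 had both near a start. The RUNX2 peaks of WWC1 (score 56.5), the gene of the scaffold KIBRA, and FRMD6 (31.9) led here, and for MTA1 those of TAOK2 (52.4, nearest to HIRIP3 and INO80E) and NF2 (47.5, inside the gene).

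Of 7 genes of YAP or TEAD binding partners 4 had both near a start, a share near the 44.3% of all genes. PTPN14, a phosphatase that binds YAP, led with a RUNX2 peak of score 68.9 (rank 185) and an MTA1 peak of 51.8 (rank 243), followed by VGLL4, which competes with YAP for TEAD, with 33.5 and 45.2. The fullest of the 4 lists, all drawn up with earlier results of these data known, was that of 18 other YAP target genes. RUNX2 peaks lay near a start of 17 of them and MTA1 peaks of 16, against 49.8% and 51.2% of all protein-coding genes. A RUNX2 peak of the highest decile lay in the region of 14, an MTA1 peak of it in that of 13 and both in that of 11, against 38.8%, 38.9% and 26.5% of all genes. The median density was 6.98 RUNX2 and 4.99 MTA1 peaks per 100 kb. MYOF, the gene of myoferlin, had the highest RUNX2 score, 78.0 (rank 78), inside the gene, and PTPN14 the next. PTPN14 and ARHGEF17 (46.6, nearest to P2RY6) led for MTA1. Over all 38 genes the median was 4.92 and 3.47 per 100 kb, above the 3.55 and 2.58 of all protein-coding genes.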

How the data were processed

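CUT&Tag libraries of MDA-MB-231 cells were made by the authors with an antibody against RUNX2 or MTA1. The labels and the methods name different antibody suppliers, and the labels describe a ligation-based library, so these details are uncertain. The authors called peaks in each library and deposited 1 list per library with a score per peak, whose scale is not given in the sources used here. The submitters' processing notes name CASAVA 1.4, Bowtie 0.12.8, MACS, MACS2 and the build hg19, without roles. The positions nevertheless fitted GRCh38. Of 22199 RefSeq GRCh38.p14 promoter windows, 37.5% held a RUNX2 and 40.7% an MTA1 peak, against 1.89% and 1.49% after a move of 100 kb, so GRCh38.p14 was used for genes, distances and sequences.

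Positions are 1-based, and only chromosomes 1 to 22, X and Y were used. A peak was assigned to every gene whose span, with 50 kb on each side, it touched, and overlap meant at least 1 bp. Background shares were taken over 20037 protein-coding genes, of which 15842 had a start in the promoter table. Shares carry exact (Clopper-Pearson) 95% intervals. With 1 library per antibody there was no test and no p-value. The counting and overlap steps were tested on simulated data. Depth is unknown. All 10 genes are described with the highest-scoring peak and the start peaks of each. In the other lists the 2 genes leading in each library and those without a peak are named. Members and lists were chosen with earlier results of these data known, and peaks in a few passages were picked after their values were seen. Tables were made with pandas 2.3.3 and numpy 2.4.6 in Python 3.11.15, intervals with scipy 1.17.1 and plots with matplotlib 3.10.9.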

Additional observations from a re-analysis of the deposited data

How the results depend on the processing

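Of 68 alternative values, 53 stayed within 1.5 times a count or within the 95% interval of a share, and 15 did not. Fewer peaks remained by construction with regions of 10 kb on each side (59 RUNX2, 46 MTA1), the gene span only (43 and 32), peaks at or above the median score (65 and 47) and the 10000 highest-scoring peaks (25 and 24). With the last, the genes with a peak near a start dropped to 4 (RUNX2), 5 (MTA1) and 4 (both). The share of MTA1 peaks overlapping a RUNX2 peak was 89.4% at or above the median score, 62.5% with the 10000 highest-scoring peaks, 86.2% without the narrowest peaks and 63.2% when each peak had to cover 50% of the other. The last rule is stricter by construction. The other 3 settings cut both lists, so that an MTA1 peak could lose its RUNX2 partner. Before the lists were cut, no MTA1 peak of the 10 regions without a partner stood above 56.0% of its list. The drop with the 10000 highest-scoring peaks is thus also by construction. For the rises to 89.4% and 86.2% the cause was not tested. The share of RUNX2 peaks overlapping an MTA1 peak ranged from 49.0% to 63.1%.

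With the gene span only, ANKRD1 was the gene without a peak of either library. Within 250 bp of a start TEAD3 lost its RUNX2 peak, and within 3 kb all 10 genes had both. Depth is unknown, so that a missing weak peak cannot be read as an unbound site. No paired analysis was possible because each antibody has 1 library and no result comes from a test.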
